A study of Arabidopsis thaliana with 6 samples.

Results

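Heat shock proteins are molecular chaperones. HSP70 proteins bind unfolded stretches of other proteins and release them in cycles driven by ATP, helped by J-domain partners and nucleotide exchange factors. Class I small heat shock proteins are cytosolic holdases that keep denatured proteins from clumping until HSP70 and HSP100 chaperones can refold them. In Arabidopsis some cytosolic HSP70 genes are expressed in all tissues and rise further with heat, whereas most class I small heat shock genes are nearly silent in unstressed seedlings and are switched on by heat shock transcription factors.

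The set examined here lists 7 Arabidopsis thaliana loci, 3 for cytosolic HSP70 and 4 for class I small heat shock proteins. It was chosen by the measured rise of AT3G09440, a cytosolic HSP70 gene, in the mutant against wild type, and then filled by family. The question was whether AT3G09440 was higher alone or with its relatives. Because that contrast picked the set, the changes of its members are given as a description without p-values. A locus was kept when a probe set was paired with it and no other gene, which left 4 of the 7, among 13513 single-gene probe sets and 22746 gene probe sets on the array. These 4 are AT3G09440 and Hsp70-2 (AT5G02490) for HSP70, and AT1G53540 and AT2G29500 for the small heat shock proteins. No probe set was named here for Hsp70b (AT1G16030). AT1G59860 and AT1G07400 share 1 probe set that cannot tell them apart, so neither is reported.

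The arrays were 6 Affymetrix ATH1 GeneChips hybridised with total RNA of whole seedlings grown in light. Wild type plants of accession Col-0 gave 3 of them, and plants mutant in 3 VFB genes, which encode F-box proteins, gave the other 3. The labels do not say which VFB genes or alleles were mutated, or whether replicates were separate cultures, so the spread may be technical. All descriptions give an age of 10 days, but the source names of the mutant samples give 5 days, so age and genotype cannot be told apart if the latter holds. The extract text of mutant replicate 3 names a No-0 wild type, although its title puts it in the mutant group. In whole seedlings, fewer cells of a type and less RNA per cell cannot be told apart. Values are MAS5 signals, scaled by the submitters to a trimmed mean of 499 to 500 on each array.

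AT3G09440 had signals of 903.4, 1045.8 and 906.1 in wild type replicates 1 to 3 and of 2816.1, 1845.2 and 1864.6 in mutant replicates 1 to 3. Every mutant array lay above every wild type array, and mutant replicate 1 stood above the other mutant arrays. The group means were 951.8 ± 81.4 and 2175 ± 555 (SD, n = 3 each). The log2 change, mutant minus wild type, of log2(signal + 16) was 1.15 ± 0.154 (SE), or 2.22-fold. That is larger than the spread within either group, which was 0.208 on the log2 scale from lowest to highest in wild type and 0.606 in the mutant. Without mutant replicate 1 the log2 change was 0.95, and without mutant replicate 3, the array with the conflicting label, it was 1.25.

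Hsp70-2, a second cytosolic HSP70 gene, had signals of 251.2, 298.7 and 236.1 in wild type and of 483, 430 and 449.8 in the mutant. The groups again did not overlap. Their means were 262.0 ± 32.7 and 454.3 ± 26.8 (SD, n = 3 each), a log2 change of 0.76 ± 0.138 (SE), or 1.70-fold. Unlike AT3G09440, this gene varied less among mutant arrays, by 0.162 on the log2 scale, than among wild type arrays, by 0.320. Its locus lies beside that of another HSP70 gene, AT5G02500, for which no single-gene probe set was found. Cytosolic HSP70 genes are alike in sequence, and whether the probe sets also bind transcripts of their relatives was not tested.

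The class I small heat shock gene AT2G29500 was dimmer, with signals of 78.4, 130.5 and 92.2 in wild type and of 196.7, 146.9 and 140.2 in the mutant. The groups did not overlap, but wild type replicate 2 came close to mutant replicate 3. The means were 100.4 ± 27.0 and 161.3 ± 30.9 (SD, n = 3 each), a log2 change of 0.62 ± 0.217 (SE), or 1.54-fold. The log2 change ranged from 0.48 to 0.80 when 1 array was left out.

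AT1G53540, the other class I small heat shock gene, stayed near the floor of the array. Its signals ran from 4 in wild type replicate 1 to 35.7 in wild type replicate 3, with replicate 2 in between, and were 33.6, 5.6 and 21.9 in mutant replicates 1 to 3. The groups overlapped over nearly their whole range. The means were 18.5 ± 16.03 and 20.4 ± 14.1 (SD, n = 3 each), and the log2 difference of 0.10 ± 0.424 (SE, fitted without the brightness filter) turned to -0.24 without wild type replicate 1. With that standard error, a difference of the size seen for Hsp70-2 (0.76) or AT2G29500 (0.62) could have gone undetected.

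**Figure D1:**
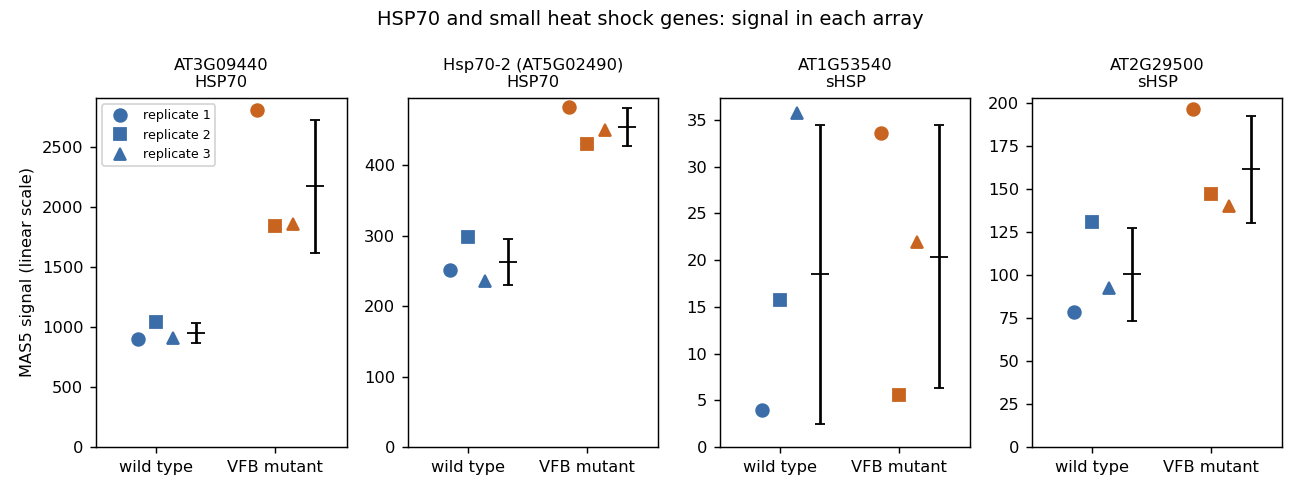
MAS5 signal (linear scale from 0, a separate scale per panel) of the 4 genes in each array, with wild type in blue, the VFB mutant in orange, symbols for replicate numbers, and black bars for the mean ± SD of 3 arrays. The groups are apart for AT3G09440, Hsp70-2 and AT2G29500 and overlap for AT1G53540, and mutant replicate 1 is the highest mutant array in each panel.

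Against the whole array, 3 of the 4 genes had every mutant array above every wild type array, a pattern shown by 11.8% of all gene probe sets in that direction and by 16.1% in the opposite one. The test was limited to the brighter probe sets, those over the 40th percentile of the mean log2 values, or a signal of about 109. AT3G09440, Hsp70-2 and AT2G29500 met this and AT1G53540 did not. For AT2G29500 the wild type mean of 100.4 lay under that level and the mutant mean of 161.3 above it. It was thus tested only through its mutant arrays. Of the 3 tested, both HSP70 genes were past the threshold of 0.05 on the adjusted p and higher in the mutant, as were 8.17% of all tested probe sets, while 10.4% were past it and lower. AT2G29500 was not past it. Since this contrast chose the set, nothing is read from these counts. Among tested probe sets the changes of AT3G09440, Hsp70-2 and AT2G29500 stood at the 98.7th, 96.8th and 95.3rd percentile, around a median change of -0.045 on the log2 scale.

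The balance of directions over the array rested on the scaling. With the deposited scale 43.9% of the calls were higher in the mutant, and 61.8% were once the arrays had been brought to equal medians. After quantile normalization it was 48.9%. The members had the same direction on each of these scales. Equal medians gave a log2 change of 1.24 for AT3G09440, 0.85 for Hsp70-2, 0.71 for AT2G29500 and 0.19 for AT1G53540.

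A rank of the replicates, though not its size, was shared within the set, and was seen only after the values were known. Mutant arrays spanned 0.606 on the log2 scale for AT3G09440 but 0.162 for Hsp70-2, and AT1G53540 lay near the floor. Mutant replicate 1 was the highest of the 3 mutant arrays for all 4 genes. It was also the highest for 12 of 23 other chaperone and heat response genes, which makes 16 of 27, or 59.3%, against 31.9% of all gene probe sets. These genes were measured on the same arrays and are not independent of each other.

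Other genes of the heat response came from lists of 98 loci, of which 23 had a single-gene probe set and 14 were bright enough to test. Among the 14, limma called 4 higher and 2 lower in the mutant, and 8 were not past the threshold. Over all tested probe sets 8.17% were called higher and 10.4% lower. The median log2 change of the 14 was 0.19, against -0.045 over all tested probe sets. No single-gene probe set was found for the lists of further cytosolic HSP70 genes, HSP90 genes and heat shock factors. The same held for 7 of 8 indicator genes of the heat response, among them HSP101 and HSFA2. Whether these genes lie on probe sets shared with other genes was not examined.

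Of the other small heat shock genes, 7 had a single-gene probe set and 2 were tested, and the 1 called fell. AT4G21870, a small heat shock protein gene outside class I, had signals of 3028.5, 2472 and 2168.4 in wild type and of 1488.5, 1887.7 and 1530.3 in the mutant. All mutant arrays lay below all wild type arrays. The log2 change was -0.63 ± 0.137 (limma, adjusted p = 0.00665), opposite in direction to the HSP70 genes and past the threshold in all 15 alternative limma settings. AT1G54050, a small heat shock protein gene of another class, was at 455.7 in mutant replicate 1 and at 289.5 and 246.1 in the other mutant arrays, against 163.8 to 248.7 in wild type. Its log2 difference of 0.55 ± 0.220 was not past the threshold (limma, adjusted p = 0.104).

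AT5G51440 was too dim to test and is named after its values were seen. This gene, which encodes a mitochondrial small heat shock protein, had signals of 1.2, 32.1 and 23.7 in wild type and of 148.5, 143.1 and 154.5 in the mutant. The mutant arrays were close together and all far above wild type. With no brightness filter the log2 change was 2.36 ± 0.370 (limma, adjusted p = 0.00356, where 4.26% of all gene probe sets were called higher), and it stayed between 1.91 and 2.66 when 1 array was left out. Its size rests on the offset, as the wild type signals lie at the floor. With offsets of 1 and 64, tried after the data were seen, it was 3.62 (limma, adjusted p = 0.0197) and 1.38 (limma, adjusted p = 0.00131). The remaining 4 dim genes of the list, AT1G52560, ATHSP22.0, AT5G37670 and AT5G47600, overlapped between the groups, with log2 differences from -0.44 to 0.47.

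Partners of HSP70 included 2 genes that rose. Fes1A, which encodes a nucleotide exchange factor that acts on cytosolic HSP70, had signals of 139.4, 177.6 and 179 in wild type and of 359.4, 305.3 and 233.4 in the mutant. The groups did not overlap, and mutant replicate 1 was again the highest. The log2 change was 0.79 ± 0.183 (limma, adjusted p = 0.0103), past the threshold in all 14 alternative limma settings in which it was tested. SGT1A, a co-chaperone of HSP90 and HSP70 in immune receptor assembly, went from 626.7, 542 and 556.9 to 865.7, 946.7 and 854.8. Its log2 change was 0.62 ± 0.115 (limma, adjusted p = 0.00282). The other 5 tested genes of the list, Hop1, Hop2, ATERDJ3B, AT4G28480 and AT5G48570, were not past the threshold, with log2 differences from -0.01 to 0.13. Hop1 and Hop2 encode adaptors that bridge HSP70 and HSP90.

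Among dim partners, AT2G20560, a J-domain protein gene named after its values were seen, had signals of 65.2, 60.3 and 59.8 in wild type and of 118.5, 118.2 and 131 in the mutant. The groups were far apart for their spread, and with no filter the log2 change was 0.83 ± 0.212 (limma, adjusted p = 0.0354). The remaining dim partners, Hop3 and SQN, overlapped between the groups. Their log2 differences were 0.30 and -0.55 (limma with no filter, adjusted p = 0.596 and 0.475). HSA32, which prolongs acquired heat tolerance, was at 93.6, 41 and 49 in wild type and at 135.5, 121.8 and 69.7 in the mutant. Those groups overlapped, and the log2 difference of 0.71 ± 0.324 was not past the threshold (limma with no filter, adjusted p = 0.223).

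Of 11 listed HSP70 relatives outside the cytosolic group, 2 were tested. AT1G11660, of the HSP110 type, fell from 914.1, 599 and 759 to 574.7, 457.3 and 536.3, a log2 change of -0.51 ± 0.156 (limma, adjusted p = 0.0394). That call was lost in 8 of 15 alternative limma settings. Its adjusted p in limma was 0.06 on quantile-normalized values, 0.09 on median-centred ones and at most 0.147, without mutant replicate 2. AT4G16660, an HSP70 relative of the endoplasmic reticulum, was at 597.3, 625.1 and 656.1 in wild type and at 902.7, 890 and 626 in the mutant, where replicate 3 lay within the wild type range. Its log2 difference was 0.34 ± 0.145 (limma, adjusted p = 0.129), and 0.51 without mutant replicate 3 (adjusted p = 0.0156).

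Of 8 listed chaperonin genes 1 was tested and called higher, and of 8 folding genes of the endoplasmic reticulum 2 were tested and 1 was called higher. Cpn60beta2, a chaperonin subunit of the chloroplast, went from 4324.6, 4716.4 and 4365.3 to 5932.9, 5450.1 and 5779.8, a log2 change of 0.36 ± 0.0942 (limma, adjusted p = 0.0198). CRT1b, a calreticulin of the endoplasmic reticulum, went from 2046, 2193.8 and 2087.7 to 2624.8, 2767.5 and 2522.4, a log2 change of 0.32 ± 0.0966 (limma, adjusted p = 0.0363). In both, every mutant array was above every wild type array. The call of Cpn60beta2 was lost in 5 of 15 alternative limma settings (highest adjusted p = 0.0674) and that of CRT1b in 8 of 15 (highest adjusted p = 0.13). BZIP60, a transcription factor of the unfolded protein response, differed by 0.25 ± 0.121 and was not past the threshold (limma, adjusted p = 0.186). Its groups did not overlap either, at 564.7 to 689.6 in wild type and 698.2 to 797.6 in the mutant.

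**Figure D2:**
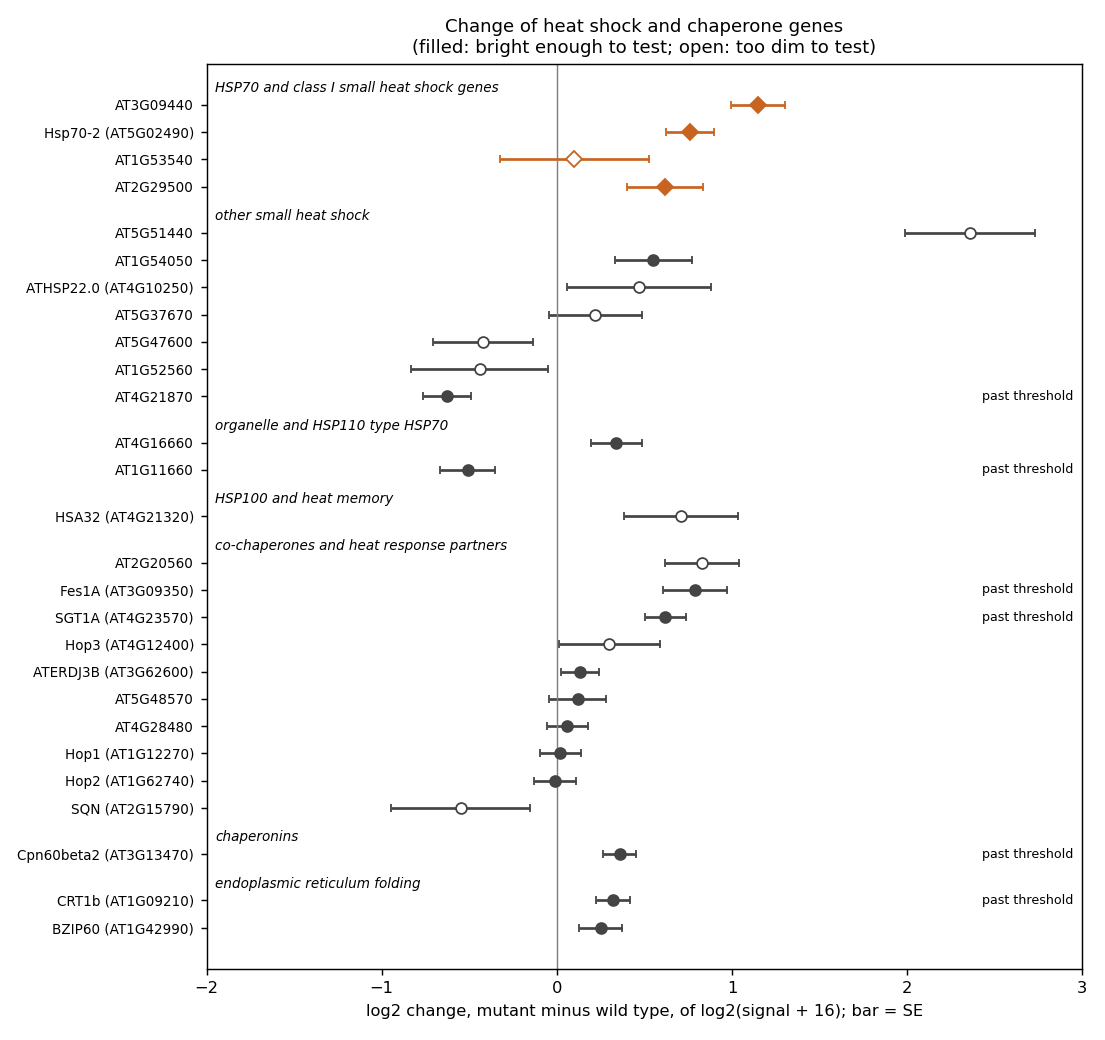
Log2 change (mutant minus wild type, of log2 of the signal plus 16) with its standard error for the 4 genes of the set, as orange diamonds, and 23 other chaperone and heat response genes, as dark circles grouped by list; open symbols were too dim to test. Among the other genes, the 6 past the threshold are written as such, 4 to the right of 0 and 2 to the left, while AT5G51440 lies farthest right at 2.36 but under the brightness filter.

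To find genes with similar values over the 6 arrays, the log2 values of each gene were centred on its wild type mean. They were compared with AT3G09440 by root mean square distance. This distance depends on the size of the change as well as on the course over arrays. Genes with smaller changes therefore lie farther away whatever their course. Among 7324 other tested single-gene probe sets the median distance was 0.893. The nearest were AT5G16980 (0.137), AT5G62130 (0.141), AT1G23205 (0.145), AT4G03260 (0.166) and AT2G21640 (0.179). Their log2 changes were 0.99 to 1.14. None was on the chaperone lists, but those lists gave only 14 of the 7324 compared, so this says little. AT5G16980 had a wild type mean of 83.1, under the brightness filter, and a mutant mean of 193.6. Mutant arrays of AT4G03260 spanned only 0.222 on the log2 scale, against 0.606 for AT3G09440. AT5G62130, for example, had signals of 184.2, 200.4 and 141.6 in wild type and of 469.6, 365.8 and 381.5 in the mutant. Of the chaperone genes, Fes1A was nearest (0.304), followed by Hsp70-2 (0.319), AT2G20560 (0.330) and AT2G29500 (0.403), while AT1G53540 stood at 0.878, close to that median although too dim to be among those tested.

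**Figure D3:**
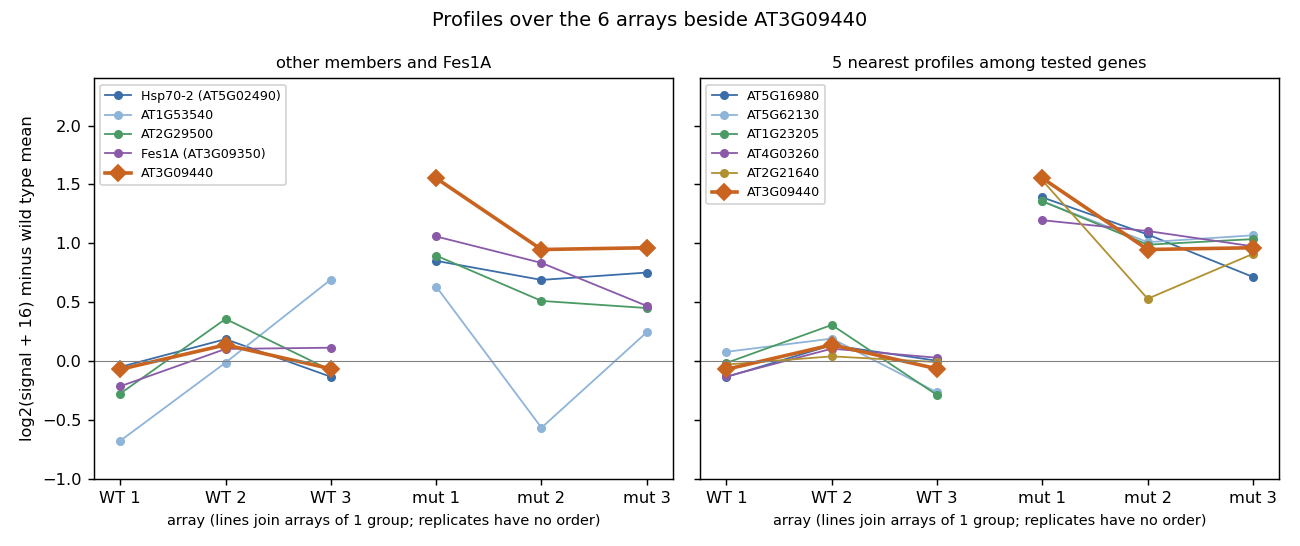
Log2 of the signal plus 16 minus the wild type mean, in each array, for AT3G09440 (orange diamonds) beside the other 3 genes of the set and Fes1A (left) and beside the 5 genes with the nearest profiles (right); lines only join arrays of a group. AT3G09440 reaches 1.55 in mutant replicate 1 and 0.95 and 0.96 in the other mutant arrays. The nearest profiles run beside it because they were picked for that. AT1G53540, near the floor of the array, spreads across 0 in both groups.

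Measures of RNA quality and tissue were set beside these results, and the part of those that differed was not tested. The actin control gave a 3′ to 5′ signal ratio of 2.80 ± 0.231 for wild type against 3.40 ± 0.188 for the mutant (SD, n = 3 each), higher in every mutant array, with an exact two-sided permutation p of 0.1, the smallest that 3 against 3 can give. The GAPDH ratio was 1.13 ± 0.0577 for wild type against 1.13 ± 0.0836 for mutant arrays (exact permutation p = 1, n = 3 each). The ubiquitin ratio was 1.45 ± 0.101 against 1.64 ± 0.227, with overlap (exact permutation p = 0.3, n = 3 each). Of 4 root marker genes 3 had a single-gene probe set and 2 were tested. Of these, AT4G26010 fell (log2 change -1.07, limma, adjusted p = 0.0112). PYK10 had a log2 difference of 0.20 ± 0.118 (SE) and was not past the threshold. EXPA7, too dim to test, overlapped between the groups, with a log2 difference of -0.82 ± 0.425 (SE, no filter). The summed root signal overlapped between the groups, at 12841 to 13692 in wild type and 12493 to 17166 in the mutant. That sum is nearly all PYK10, at 12618.1 to 13438.8 in wild type and 12387.1 to 17028 in the mutant, and says little of the others. Of 5 green tissue markers the 2 with a single-gene probe set, RCA and LHCB4.1, were among the brightest signals, which matches seedlings with green tissue. Their signals summed to 38174 to 44488 in wild type and 45474 to 50254 in the mutant, with neither past the threshold. Seed markers are of interest because small heat shock genes are also active in maturing seeds. Of the 14 listed only LEA4-5 had a single-gene probe set. Its signals overlapped, at 4.9 to 45.1 in wild type and 6.3 to 52.7 in the mutant. No marker was listed at 0. Array correlations across tested probe sets were 0.978 to 0.985 within groups and 0.940 to 0.956 between them.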

How the data were processed

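The deposited intensities, 1 per probe set and not logged, were made with MAS5 per the submitters' processing notes. The sources used here give neither its version nor its settings. Each array held 22810 probe sets, of which 64 controls were left out. Intensities were used as log2(value + 16), which understates changes of dim probe sets. Probe sets with a mean above the 40th percentile (13647) were tested with limma 3.58.1 in R 4.3.3 (lmFit, eBayes with a mean-variance trend) on 3 against 3 arrays, with Benjamini-Hochberg adjustment over all of them and a threshold of 0.05. The number of arrays limits the precision. The fit was tested on simulated data. Log2 changes of dim genes come from the same fit without the filter.

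Genes came from the platform annotation, updated by Entrez number against RefSeq (TAIR10.1), which gave 1 gene for 13513 probe sets, several for 503 and none for 8730. For a gene with several probe sets the brightest was used. Members, lists and tests were chosen with earlier results of these data known. Named genes are all members, up to 4 called genes per list, 8 indicator genes and the 5 nearest profiles, and any other gene named with values was chosen after they were seen. RNA quality used an exact permutation test. No sequence table or genome was used here. Alternatives were offsets of 1 and 64, eBayes without trend or made robust, a replicate block, a 60th percentile filter or none, quantile normalization, centring on array medians, a per-gene unequal-variance test and leaving out each array. Figures were drawn with matplotlib 3.10.9.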

Additional observations from a re-analysis of the deposited data

How the results depend on the processing

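The log2 changes of AT3G09440, Hsp70-2 and AT2G29500 kept their sign under every alternative run, and moved by less than the spread between replicates. AT1G53540, too dim to test, changed sign without wild type replicate 1 (-0.24) or mutant replicate 1 (-0.16). Of the 4 genes, 2 were past the threshold as deposited, where 18.6% of all tested probe sets were called. Over the other limma settings 2 to 3 were past it. AT2G29500 was the third under quantile normalization, median centring, eBayes without trend and without wild type replicate 2. The 60th percentile filter left it out. A test with unequal variances, run singly per probe set, called 6 of 13647 probe sets and 0 of the members after adjustment. At an unadjusted p under 0.05 it called 2946 and 2. Its calls were not counted for the other chaperone genes. As the contrast chose the set, nothing is read from these counts of members. Of other chaperone and heat response genes 6 were called, 3 with eBayes without trend, and 3 to 6 when 1 array was left out, with 3 without wild type replicate 1 or without wild type replicate 3. The cause was not tested. Over single chaperone genes and limma settings, 21 calls were lost, 2 were gained and 184 kept their side. The lost calls were those of AT1G11660 (8 of 15 settings), Cpn60beta2 (5 of 15) and CRT1b (8 of 15). Those 184 include genes called in no setting, so they say little of how stable the calls were. The arrays share replicate numbers, but same-numbered arrays did not deviate together (correlations of -0.196, 0.0157 and -0.167 for numbers 1 to 3, and 1 of 6 arrays correlated best with its own number). With the replicate block 1988 probe sets, 2 members and 4 other chaperone genes were called, against 2541, 2 and 6 without it. With an older pair of actin control probe sets the log2 difference in 3′ to 5′ ratio was 0.506 in place of 0.283, with the same exact permutation p of 0.1. AT1G53540, AT5G51440, HSA32 and AT2G20560 had mean values under the filter, about 109, so less can be said of them. The wild type mean of AT2G29500, 100.4, also lay under that level.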
